A study of Homo sapiens with 12 samples.

Results

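The genes described here are 49 human homeobox genes of the LIM, paired-class, PAX, POU and Iroquois families. They were taken from a list of names that was chosen with earlier results of these data known. All were found among the 19970 protein-coding genes of chromosomes 1 to 22 and X in the gene table used. They comprise 11 LIM genes (8 LHX genes, LMX1A, LMX1B and ISL2), 18 paired-class genes outside the PAX family, 9 PAX genes, 5 POU genes and 6 Iroquois (IRX) genes. The measurements come from CUT&RUN, an assay in which a nuclease tethered to an antibody releases the DNA around the bound chromatin. The cells were MKL-1, an established line from a Merkel cell carcinoma, a skin tumour with neuroendocrine features, with integrated Merkel cell polyomavirus. MKL-1 cells were grown for 6 days with 3 µM EPZ011989 in 1% ethanol or with 1% ethanol alone as the vehicle, with fresh medium on day 3. EPZ011989 inhibits EZH2, the enzyme that methylates lysine 27 of histone H3. Each treatment was done in duplicate, and each culture was divided for use with an H3K27me3 antibody, an H3K4me3 antibody or control IgG, which gave 12 libraries in 6 groups of 2. The 2 cultures of a treatment are repeats on 1 cell line, so the spread between them covers repeated treatment and library preparation and not different tumours.

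Homeobox genes encode transcription factors that bind DNA through a homeodomain and set cell identity in the embryo. LIM proteins add LIM domains that recruit LDB cofactors, PAX proteins add a paired domain, POU proteins add a POU-specific domain, and Iroquois proteins carry a homeodomain of the TALE class. In cells that do not use them, such genes are classic targets of the Polycomb repressive complex PRC2, whose catalytic subunit EZH2 lays down H3K27me3 over broad domains; H3K4me3 marks the starts of active genes and, together with H3K27me3, of silent genes that are called bivalent.

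Each gene was given a window that reaches 2500 bp out from, and 2500 bp into the gene from, each of its ends, and its value in a library is how many base pairs of that window lie under peaks. A window measures at most 10002 bp, of which 5001 bp belong to each gene end. Peak counts differed strongly between the H3K27me3 libraries, with 363 and 22 peaks in EPZ011989 cultures against 40782 and 44287 in vehicle cultures. The H3K4me3 libraries held 23106 and 21086 peaks over 46.1 and 38.96 Mb in EPZ011989 cultures, against 22726 and 23804 peaks over 41.0 and 42.0 Mb in vehicle cultures. No IgG peak overlapped a window of the 49 genes. The deposited lists hold no read counts, so library depth is unknown and no limit of detection can be given. H3K4me3 lay at 12 of 12 Merkel cell and neuroendocrine marker genes in all 4 H3K4me3 libraries. Over all genes 65.0% had it in both vehicle libraries. At the 12 markers it covered 60713 and 58766 bp in sum in EPZ011989 cultures and 59894 and 59287 bp in vehicle cultures. Of these markers NEUROD1 also carried H3K27me3, with 1158 and 2462 bp in vehicle cultures. ENO2 and KRT8 had H3K27me3 in 1 vehicle library. No H3K4me3 lay at 4 T and B lymphocyte genes or 4 keratinocyte genes in any library, and 6177 of all 19970 genes had none. Of 5 fibroblast genes 3 carried it in every H3K4me3 library (THY1 and LUM were at 0), with 4553 and 5141 bp in sum in EPZ011989 cultures and 3533 and 5039 bp in vehicle cultures. Of 3 endothelial genes 2 carried it in both EPZ011989 libraries and 1 in both vehicle libraries, PECAM1 was at 0 throughout, and the sums were 1380 and 749 bp in EPZ011989 cultures and 602 and 926 bp in vehicle cultures. The part of other cell types in the results below was not tested.

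The sequences of 6 promoters show the range of DNA on which the 2 marks were found. Each is the 250 bases before the listed RefSeq start on GRCh38.p14, read 5′ to 3′ in the sense of transcription, with every CG dinucleotide in capitals. In their windows GSC and IRX4 carried H3K27me3 alone in vehicle cultures and H3K4me3 peaks in both EPZ011989 cultures. LMX1B and DRGX carried both marks and had longer H3K4me3 in EPZ011989 cultures. PAX4 carried H3K27me3 alone and H3K4me3 in no library. Within its window IRX2 carried H3K4me3 alone throughout.
GSC (minus strand, chr14:94770114-94770363): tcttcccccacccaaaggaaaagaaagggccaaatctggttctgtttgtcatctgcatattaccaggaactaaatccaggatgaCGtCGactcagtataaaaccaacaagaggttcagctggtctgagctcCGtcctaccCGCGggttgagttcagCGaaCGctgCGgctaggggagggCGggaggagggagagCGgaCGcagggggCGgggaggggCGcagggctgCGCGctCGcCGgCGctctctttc
IRX4 (minus strand, chr5:1887180-1887429): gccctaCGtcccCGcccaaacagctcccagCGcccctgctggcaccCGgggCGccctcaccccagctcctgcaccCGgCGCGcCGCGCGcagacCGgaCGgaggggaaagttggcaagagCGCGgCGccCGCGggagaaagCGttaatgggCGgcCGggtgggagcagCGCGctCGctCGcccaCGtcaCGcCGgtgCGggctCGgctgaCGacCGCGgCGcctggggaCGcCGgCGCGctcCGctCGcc
LMX1B (plus strand, chr9:126613678-126613927): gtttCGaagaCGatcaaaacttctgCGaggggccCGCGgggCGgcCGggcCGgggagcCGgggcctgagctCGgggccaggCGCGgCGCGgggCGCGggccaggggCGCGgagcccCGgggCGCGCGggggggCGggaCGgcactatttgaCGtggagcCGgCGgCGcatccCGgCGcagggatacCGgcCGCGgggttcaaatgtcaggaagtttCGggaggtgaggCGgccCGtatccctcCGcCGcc
DRGX (minus strand, chr10:49396090-49396339): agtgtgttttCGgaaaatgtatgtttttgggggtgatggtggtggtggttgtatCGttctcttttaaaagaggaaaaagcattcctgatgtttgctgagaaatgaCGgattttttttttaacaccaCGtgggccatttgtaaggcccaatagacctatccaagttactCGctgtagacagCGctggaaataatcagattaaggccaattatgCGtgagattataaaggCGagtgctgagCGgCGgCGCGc
PAX4 (minus strand, chr7:127618143-127618392): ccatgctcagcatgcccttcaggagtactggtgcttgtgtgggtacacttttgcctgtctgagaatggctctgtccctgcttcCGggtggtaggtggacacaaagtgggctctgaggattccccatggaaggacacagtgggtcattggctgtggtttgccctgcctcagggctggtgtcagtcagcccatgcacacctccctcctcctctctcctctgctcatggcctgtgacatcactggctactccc
IRX2 (minus strand, chr5:2751678-2751927): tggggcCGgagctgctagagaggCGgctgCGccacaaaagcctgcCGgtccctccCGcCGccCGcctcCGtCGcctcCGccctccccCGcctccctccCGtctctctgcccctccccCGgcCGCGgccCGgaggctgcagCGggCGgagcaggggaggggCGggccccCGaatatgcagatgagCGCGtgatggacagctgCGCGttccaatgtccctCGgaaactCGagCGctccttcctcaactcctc
These sequences hold 18 CG dinucleotides in GSC, 40 in IRX4, 38 in LMX1B, 12 in DRGX, 1 in PAX4 and 27 in IRX2. RefSeq starts were listed for 41 of the 49 genes, whose promoters held a median of 20 CG dinucleotides with a range of 1 to 40. Over the 15811 protein-coding genes with a listed start the median was 17, and 96.9% of their promoters held at least 1. Among the 14 promoters of the homeobox genes with H3K27me3 alone in vehicle cultures the median was 17, against 6 over the 1706 promoters of all genes in that state. Among the 17 with both marks the median was 27, against 21 over 3817 promoters. Among the 4 with H3K4me3 alone it was 15.5, against 21 over 5368 promoters. IRX4 with 40 and PAX4 with 1 both carried H3K27me3 alone. A count of CG in this window describes the letters and was tied to no factor.

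In vehicle cultures most of these genes lay under H3K27me3. A peak overlapped the window in both vehicle libraries at 36 of the 49 genes, where 36.9% of all protein-coding genes had one. By family these were 10 of 11 LIM genes, 13 of 18 paired-class genes, 8 of 9 PAX genes, 4 of 5 POU genes and 1 of 6 Iroquois genes. H3K4me3 lay in both vehicle libraries at 26 of the 49 genes, against 65.0% of all genes. Taken by both marks in vehicle cultures, 18 genes carried H3K27me3 and H3K4me3, 17 carried H3K27me3 alone, 6 carried H3K4me3 alone, 4 carried neither, and 4 had a mark in only 1 of the 2 libraries. Those counts are 36.7%, 34.7%, 12.2%, 8.16% and 8.16% of the set, against 24.2%, 11.6%, 32.2%, 19.2% and 12.8% of all genes. At all 18 genes with both marks the peaks shared bases within the same vehicle culture, in both cultures. These 18 of the 49 genes stand against 19.7% of all genes, and over all genes the bases were shared at 3937 of the 4838 with both marks. At LHX3 the H3K27me3 peaks of the 2 vehicle cultures lay apart, with 198 and 965 bp in the window, so its shared bases differed between cultures. With peaks at a −log10 q of 5 or more, 30 of the 49 genes had H3K27me3 in both vehicle libraries. Under that limit 14 genes had shared bases in both cultures. CUT&RUN on a culture does not show whether both marks sat on the same DNA molecule.

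The whole window was covered by H3K27me3 in both vehicle libraries at 11 of the 49 genes, against 3.05% of all genes. PRRX2, RAX, PAX1, PAX2, PAX7, LHX5, POU4F1 and IRX4 each had 10002 bp covered in both vehicle libraries. GSC, POU3F1 and POU3F2, which are short and have smaller windows, had 6891, 7965 and 9885 bp covered in both. These genes have unlike roles: RAX specifies the eye field, PAX7 marks muscle satellite cells and neural crest, PAX2 acts in kidney and PAX1 in the vertebral column, POU4F1 acts in sensory neurons, and GSC is a gene of the gastrula organizer. At ALX4, PAX3, LHX4, LHX6 and LHX9 exactly 5001 bp were covered in both vehicle libraries, which is the length of a single gene end.

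The lengths of the H3K27me3 domains over the set were also described. Merging the peaks of both vehicle libraries gave 54179 regions genome-wide with a median of 1208 bp, of which 2.60% reached 20 kb. A region overlapped the gene or its flanks at 40 of the 49 genes. Over all 19970 genes, 10623 had a peak there in any of the 4 H3K27me3 libraries. At the 40 genes the median of the longest region was 18835 bp, and 18 genes had one of at least 20 kb. The longest covered PAX7 with 261.6 kb (chr1:18582666-18844312) and also contained the taste receptor gene TAS1R2. The next covered LHX5, a forebrain LIM gene, with 204.2 kb (chr12:113451699-113655877) and no other protein-coding gene. PRRX2, a gene of limb and craniofacial mesenchyme, lay in 163.0 kb (chr9:129638925-129801952) together with ASB6 and PTGES. PAX1 lay in 61.1 kb (chr20:21684521-21745638) and POU3F1, a POU gene of neural and Schwann cells, in 53.0 kb (chr1:38026426-38079377). Neither region held another protein-coding gene. A gene has a greater chance to touch a long region than a short one, so the regions at genes and the genome-wide median describe differently sampled regions. How many of all genes had a region of at least 20 kb was not counted.

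With EPZ011989 no window of the 49 genes held a H3K27me3 peak, in either library. Over all protein-coding genes, 39 windows in the first EPZ011989 library and 2 in the second still had one. The values in vehicle cultures spanned the full range of the window. PITX1, which specifies the hindlimb, had 0 and 0 bp in EPZ011989 cultures and 8968 and 8980 bp in vehicle cultures. LHX1, needed for head and kidney formation, had 0 and 0 bp in EPZ011989 cultures and 8696 and 10002 bp in vehicle cultures. LMX1B, which patterns the dorsal limb and the kidney, had 0 and 0 bp in EPZ011989 cultures and 8706 and 9220 bp in vehicle cultures. At these 3 genes the vehicle cultures had nearly the whole window covered and the EPZ011989 cultures none of it.

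**Figure D1:**
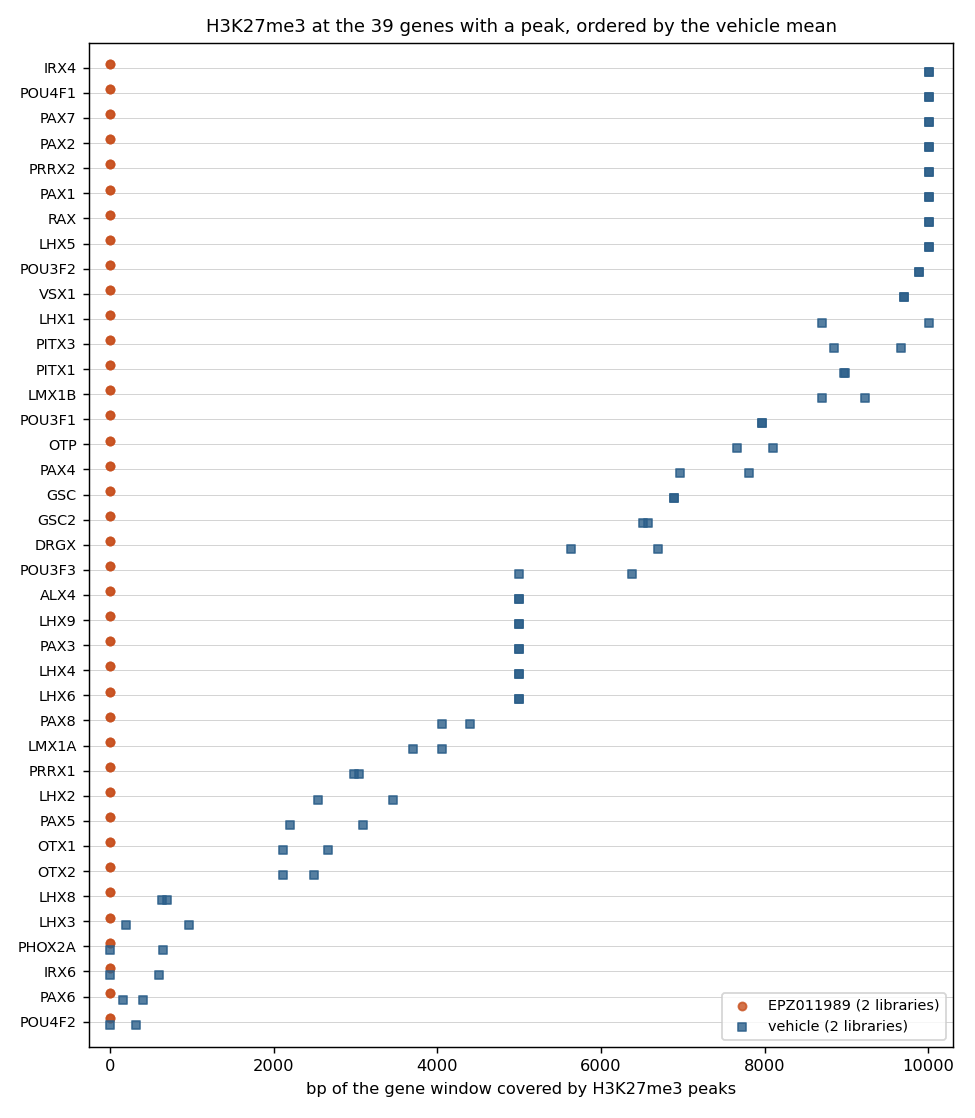
Base pairs of the gene window covered by H3K27me3 peaks (x axis) in each EPZ011989 library (circles) and each vehicle library (squares), for the 39 genes with a peak in at least 1 library, ordered by the vehicle mean. All EPZ011989 values are 0, while vehicle values run up to 10002 bp.

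By limma, with Benjamini-Hochberg adjustment over all 9600 windows tested, H3K27me3 fell at 34 of the 39 genes with a peak in any library and rose at 0, against 60.2% of all windows tested falling and 0% rising. All 39 genes entered the test through vehicle libraries alone, so a negative difference was fixed and the count says only how many passed. The share over all windows mixes vehicle states. With both marks in vehicle cultures 17 of 18 genes in the set were called lower, against 3728 of 4838 overall. With H3K27me3 alone 16 of 17 were called lower, against 1855 of 2314. With a mark in 1 of 2 vehicle libraries 1 of 4 was, against 200 of 2439 tested. The median difference between EPZ011989 and vehicle was −6170 bp over these 39 genes and −2235 bp over all windows tested. At LHX1 the fall was 9349 bp (SE 635, adjusted p = 0.00826). At LMX1B it was 8963 bp (SE 249.8, adjusted p = 0.00175). At DRGX, a gene of pain-sensing neurons, it was 6170 bp (SE 474, adjusted p = 0.00546), with 5637 and 6703 bp in vehicle cultures. At POU3F3, a POU gene of forebrain and kidney, it was 5688 bp (SE 610, adjusted p = 0.0109), with 5001 and 6375 bp in vehicle cultures. The smallest fall called was at LHX8, a gene of cholinergic neurons, which had 633 and 700 bp in vehicle cultures (adjusted p = 0.00217). At 16 of the 34 genes the 2 libraries of each group had the same value, so the spread there was borrowed from other windows and no SE or p is given. The fit without the first EPZ011989 library called 22 of the 39 genes, and the fit without the second also called 22; DRGX, OTP, OTX1, OTX2, PITX3, PAX4, PAX5, LHX1, LHX2, LHX8, LMX1B and POU3F3 were lost in both. Over all 9600 windows these fits called 3212 and 3209 lower, against 5783 with all libraries.

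5 of the 39 genes did not pass the test, and each of these had little H3K27me3 in vehicle cultures. LHX3, a pituitary and motor neuron gene, had 198 and 965 bp in vehicle cultures. PAX6, the eye and pancreas gene, had 408 and 159 bp. PHOX2A of noradrenergic neurons had 0 and 644 bp, POU4F2 of retinal ganglion cells had 0 and 320 bp, and IRX6 had 595 and 0 bp, each with a peak in 1 vehicle library only. After quantile normalization between libraries, which forces the nearly empty EPZ011989 lists to the distribution of the vehicle lists, these 5 genes and LHX8 changed sign; that scaling moved the median of all windows from −2235 to 10.5 bp.

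10 genes had no H3K27me3 in the window in any library. 6 of them carried H3K4me3 in every H3K4me3 library. IRX2 had 5656 and 5796 bp of H3K4me3 in EPZ011989 cultures and 5701 and 5776 bp in vehicle cultures. SHOX2, a gene of limb and sinoatrial node, had 5001 bp in each of the 4 libraries. UNCX, a somite and neural gene, had 8830 and 8126 bp in EPZ011989 cultures and 8832 and 8056 bp in vehicle cultures. ISL2, a motor neuron gene closely related to ISL1, had 3888 and 3667 bp in EPZ011989 cultures and 3369 and 3888 bp in vehicle cultures. IRX3 had 4741 and 4279 bp in EPZ011989 cultures and 4372 and 4995 bp in vehicle cultures. IRX5 had 7083 and 5314 bp in EPZ011989 cultures and 5461 and 6174 bp in vehicle cultures. The 2 groups overlapped at all 6 of these genes. The other 4, ALX1, ISX, PAX9 and IRX1, had neither mark in the window.

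The windows leave out the middle of long genes, so the whole gene with 2500 bp on either side was also measured, a choice made after the data were examined. Over the whole gene H3K27me3 fell at 35 of 40 genes tested, against 61.4% of all genes tested. Where the vehicle window held both marks it fell at 18 of 18, against 3738 of 4838. Where the window held H3K27me3 alone it fell at 16 of 17, against 1955 of 2314. The whole gene lay inside H3K27me3 in both vehicle libraries at 10 of the 49 genes, against 2.53% of all genes. H3K27me3 peaks were left with EPZ011989 inside 2 genes, both of which lie in the longest vehicle regions. Inside PAX7 a peak of 745 bp (chr1:18645923-18646667) stood in the first EPZ011989 library, with a −log10 q of 1.82 and a fold of 4.93 by the authors' peak caller. Inside LHX5 a peak of 1332 bp (chr12:113467446-113468777) stood in the first EPZ011989 library, with a −log10 q of 1.44 and a fold of 4.49. Neither was in the second EPZ011989 library. The LHX5 peak overlapped H3K4me3 of the same culture, which covered chr12:113464851-113468215.

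For H3K4me3 the 7 largest values of EPZ011989 minus vehicle were at LHX1, LMX1B, POU3F3, DRGX, POU4F1, POU3F2 and LHX6, which carried both marks in vehicle cultures, followed by GSC with H3K27me3 alone. No difference passed the adjusted test. Of the 49 genes, 30 had H3K4me3 in at least 1 library and entered the fit. Their median difference was 380.25 bp, against 52.0 bp over all 13793 windows tested. Both EPZ011989 values lay above both vehicle values at 14 of the 30 genes, against 24.4% of all windows tested. Both lay below at 1 gene, IRX6, against 12.7% of all windows, and the groups overlapped or were equal at 15. The all-window shares mix vehicle states. With both marks in vehicle cultures, EPZ011989 values lay above at 10 of 18 genes in the set, against 1961 of 4838 genes overall. They lay below at 0 of these 18, against 306 of 4838. Of the 14 genes, GSC, ALX4 and IRX4 had no vehicle H3K4me3 and entered the fit through EPZ011989 libraries alone. Only a higher value was possible at these genes. In sum over the 49 genes H3K4me3 covered 110713 and 95695 bp in EPZ011989 cultures and 86253 and 88524 bp in vehicle cultures.

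**Figure D2:**
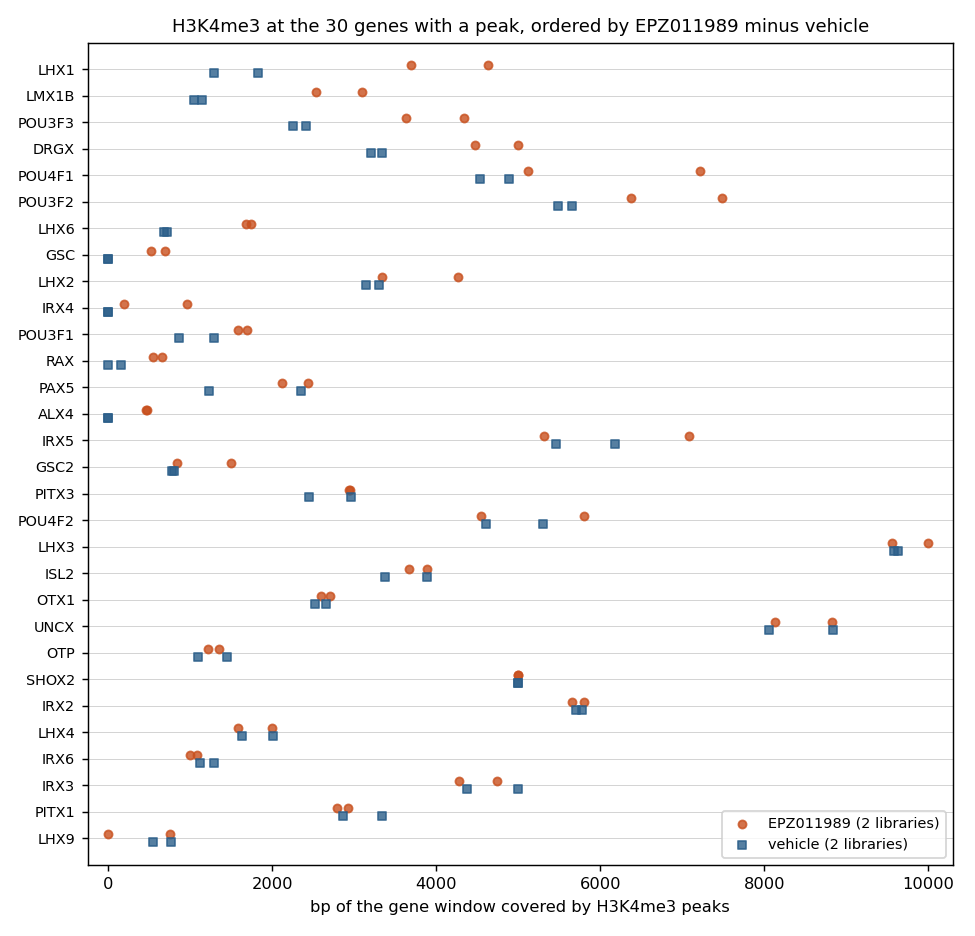
Base pairs of the gene window covered by H3K4me3 peaks (x axis) in each EPZ011989 library (circles) and each vehicle library (squares), for the 30 genes with a peak in at least 1 library, ordered by the mean difference of EPZ011989 minus vehicle. LHX1 stands at the top with 4625 and 3688 bp in EPZ011989 cultures and 1284 and 1825 bp in vehicle cultures, and LHX9 at the bottom with 751 and 0 bp in EPZ011989 cultures and 762 and 546 bp in vehicle cultures.

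4 genes met the rule of H3K4me3 at least 1000 bp longer in both EPZ011989 libraries than in either vehicle library. Over all windows tested 1.07% met it. Among genes with both marks in vehicle cultures it was met by 4 of 18 in the set, against 110 of 4838. H3K4me3 was shorter by as much at 0 of these 18, against 4 of 4838. LHX1 (chr17:36936785-36944612) had 4625 and 3688 bp in EPZ011989 cultures and 1284 and 1825 bp in vehicle cultures. LMX1B (chr9:126613928-126701032) had 3090 and 2539 bp in EPZ011989 cultures and 1040 and 1141 bp in vehicle cultures. POU3F3 (chr2:104853276-104927773) had 4340 and 3630 bp in EPZ011989 cultures and 2414 and 2248 bp in vehicle cultures. DRGX (chr10:49364066-49396089) had 5001 and 4468 bp in EPZ011989 cultures and 3203 and 3333 bp in vehicle cultures. The differences were 2602 bp at LHX1 (SE 383), 1724 bp at LMX1B (SE 244), 1654 bp at POU3F3 (SE 291) and 1466.5 bp at DRGX (SE 263). The limma p-values adjusted over all windows were 0.1498 at LHX1, 0.1496 at LMX1B, 0.186 at POU3F3 and 0.190 at DRGX, so none passed 0.05. DRGX lay just inside the rule, with 1135 bp between its nearest EPZ011989 and vehicle values, and LHX6 just outside, with 952 bp.

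LHX6, which directs cortical interneurons, had 1745 and 1674 bp in EPZ011989 cultures and 722 and 680 bp in vehicle cultures, a difference of 1008.5 bp (SE 161, adjusted p = 0.178 by limma). POU3F2, a gene of neural progenitors, had 7480 and 6380 bp in EPZ011989 cultures and 5481 and 5650 bp in vehicle cultures, a difference of 1364.5 bp (SE 464, adjusted p = 0.439). POU4F1 had 7211 and 5121 bp in EPZ011989 cultures and 4883 and 4538 bp in vehicle cultures, a difference of 1455.5 bp (SE 708, adjusted p = 0.614). LHX2, a gene of forebrain, eye and hair follicle, had 4259 and 3340 bp in EPZ011989 cultures and 3140 and 3306 bp in vehicle cultures, a difference of 576.5 bp (SE 344, adjusted p = 0.697). At POU4F1, POU3F2 and LHX2 the first EPZ011989 library was well above the second. The first was also the higher at LHX1, LMX1B, POU3F3, DRGX and LHX6. That library also covered more of the genome with H3K4me3 than the other 3, and the part of this in the result was not tested. Without the second EPZ011989 library the count of genes longer by 1000 bp was 7, with POU4F1, POU3F2 and LHX6 added, and without each of the other 3 libraries in turn it was 4.

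The H3K4me3 values were also split at the start site, which could not be done for LHX1 because it has no listed start. At LMX1B the difference lay mainly upstream: there covered bases numbered 2268 and 2162 in EPZ011989 cultures and 783 and 816 in vehicle cultures, while those downstream numbered 822 and 377 in EPZ011989 cultures and 257 and 325 in vehicle cultures. At DRGX upstream bases numbered 2500 and 1967 in EPZ011989 cultures and 702 and 1034 in vehicle cultures, and downstream the half-window was full or nearly full in all 4 libraries, with 2501 and 2501 in EPZ011989 cultures and 2501 and 2299 in vehicle cultures. POU3F3 had 2500 and 2472 upstream bases in EPZ011989 cultures and 1215 in each vehicle culture, and 2501 and 1198 downstream bases in EPZ011989 cultures and 1612 and 1033 in vehicle cultures, where the groups overlapped. At LHX6 both sides were longer, with 884 and 814 upstream bases in EPZ011989 cultures and 320 and 397 in vehicle cultures, and 861 and 860 downstream bases in EPZ011989 cultures and 402 and 283 in vehicle cultures. At POU4F1 the groups overlapped upstream, with 1443 and 1188 bases in EPZ011989 cultures and 1764 and 1434 in vehicle cultures. Downstream at POU4F1 there were 2501 and 2207 bases in EPZ011989 cultures and 1839 and 1258 in vehicle cultures. In vehicle cultures H3K27me3 covered all 2500 upstream and all 2501 downstream bases at each of these 5 genes.

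**Figure D3:**
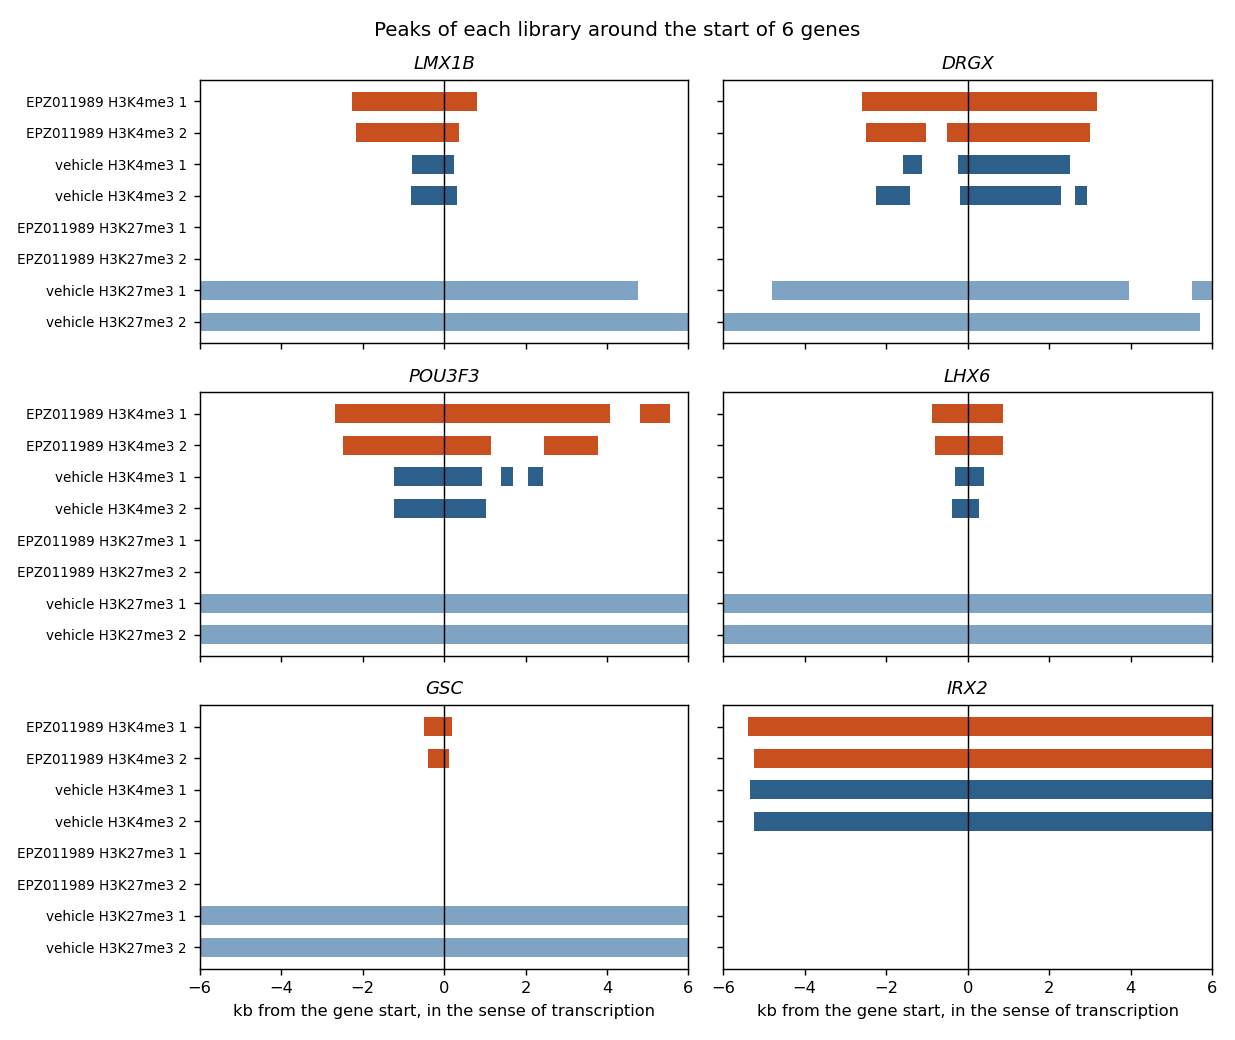
Peaks of each library (rows) from 6 kb before to 6 kb after the start of 6 genes (x axis, kb in the sense of transcription); orange marks H3K4me3 with EPZ011989, dark blue H3K4me3 with vehicle and light blue H3K27me3 with vehicle. The EPZ011989 H3K27me3 rows are empty. The H3K4me3 peak at LMX1B reaches about 2268 and 2162 bp upstream in EPZ011989 cultures against 783 and 816 bp in vehicle cultures. Within its gene window IRX2 has H3K4me3 alone in every culture. Only peaks that reach a gene or its 2500 bp flanks are drawn. Upstream of IRX2, beyond those flanks but within the 6 kb shown, a H3K27me3 peak of the second vehicle library is left out. It runs from 877.133 to 879.217 kb past the first base of IRX4. The H3K4me3 peak of the same culture, from 859.948 to 879.499 kb, covers that stretch.

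At 3 genes both EPZ011989 libraries, and neither vehicle library, had a H3K4me3 peak, against 1.33% of all windows tested, and the reverse was seen at 0 genes, against 0.203%. All 3 carried H3K27me3 alone in vehicle cultures, as did 178 of the 184 genes that met this rule over all genes; a gene with vehicle H3K4me3 cannot meet it. GSC (chr14:94768223-94770113) had 691 and 520 bp in EPZ011989 cultures and 0 and 0 bp in vehicle cultures, a difference of 605.5 bp (SE 165, adjusted p = 0.338 by limma). Its peaks spanned the start, with 495 and 387 bases upstream and 196 and 133 downstream in EPZ011989 cultures, at a fold of 19.8 and 8.02 by the authors' peak caller. ALX4, a gene of skull and limb development, had 456 and 469 bp in EPZ011989 cultures and 0 and 0 bp in vehicle cultures, a difference of 462.5 bp (SE 156, adjusted p = 0.435). Its peaks covered chr11:44310039-44310494 and chr11:44310139-44310607, at the right-hand end of the gene (chr11:44260440-44310139), with a fold of 11.3 and 4.90. IRX4, a gene of the heart ventricle, had 957 and 189 bp in EPZ011989 cultures and 0 and 0 bp in vehicle cultures, a difference of 573 bp (SE 283, adjusted p = 0.619).

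The peaks at IRX4 did not lie at the same place in both EPZ011989 cultures. The first library had a peak of 645 bp over the start, with 149 bases upstream and 496 downstream, while the second had none there. The peaks common to both lay beyond the other gene end, at chr5:1874452-1875224 and chr5:1874302-1875101. Over the whole gene IRX4 had 2214 and 189 bp in EPZ011989 cultures and 0 and 304 bp in vehicle cultures, so it no longer met the rule. Measured at the start alone, which could be done for 41 of the 49 genes and not for ALX4, the rule was met by GSC and not by IRX4.

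RAX came close to the rule, with 660 and 552 bp in EPZ011989 cultures and 0 and 156 bp in vehicle cultures (528 bp, SE 167, adjusted p = 0.401 by limma). Its H3K4me3 lay inside the gene and not at the start, where no library had any. POU3F1 had 1585 and 1688 bp in EPZ011989 cultures and 1286 and 869 bp in vehicle cultures (559 bp, SE 206, adjusted p = 0.474). These 2 genes and LHX1, LMX1B, POU3F3, DRGX, POU3F2, LHX6, GSC and ALX4 are the 10 of 30 with an unadjusted p under 0.05 in the higher direction, against 8.41% of all windows tested. In the lower direction there were 0, against 1.48%. For genes with both marks in vehicle cultures the higher count was 7 of 18 in the set, against 763 of 4838. The lower count was 0 of 18, against 33 of 4838. GSC and ALX4 had no vehicle H3K4me3, so only the higher direction was open to them. After adjustment limma called 0 of the 30 genes and 0% of all windows in either direction. With quantile normalization LHX1, LMX1B, POU3F3 and DRGX were called higher, with adjusted p between 0.0206 and 0.0406; over all 13793 windows 89 were then called higher and 7 lower, and that scaling moved the median of all windows to −40.5 bp. With no filter on windows without a peak, 7 were called higher (these 4, LHX6, ALX4 and POU4F1), against 491 higher and 32 lower over all 19970 windows.

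The differences in H3K4me3 were also described by vehicle state. Over the 18 genes with both marks the median was 527 bp, against 203.5 bp over all 4838 genes with both marks. Over the 3 genes with H3K27me3 alone that entered the fit it was 573 bp, against 397.5 bp over 385 such genes; these passed the filter only through EPZ011989 libraries, so a positive value was fixed. Over the 6 genes with H3K4me3 alone it was 17.0 bp, against −38.0 bp over 6440 genes. By family the median was 377.5 bp over 8 LIM genes, 241.5 bp over 11 paired-class genes, 1364.5 bp over 5 POU genes and −12.5 bp over 5 Iroquois genes; PAX5 alone stood for its family.

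The smallest differences were at LHX9, PITX1, IRX3, IRX6 and LHX4. LHX9, a gene of gonad and brain, had 751 and 0 bp in EPZ011989 cultures and 762 and 546 bp in vehicle cultures, so that 1 EPZ011989 library alone set its difference of −278.5 bp (SE 287). PITX1 had 2922 and 2793 bp in EPZ011989 cultures and 2865 and 3338 bp in vehicle cultures, a difference of −244.0 bp (SE 240.3). IRX3 had a difference of −173.5 bp (SE 332). IRX6 had 1002 and 1077 bp in EPZ011989 cultures and 1286 and 1114 bp in vehicle cultures, a difference of −160.5 bp (SE 170) with 37 bp between the groups. LHX4, a pituitary gene, had 1992 and 1582 bp in EPZ011989 cultures and 1635 and 2009 bp in vehicle cultures, a difference of −35.0 bp (SE 239). By limma none of these 5 passed the test, and 0 of the 30 genes had H3K4me3 at least 1000 bp shorter in both EPZ011989 libraries, against 0.0363% of all windows tested.

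Most genes under H3K27me3 alone had no H3K4me3 at the gene ends in EPZ011989 cultures. Of the 17 genes in that state, 14 had no H3K4me3 in the window in any library, and all 17 had no H3K27me3 peak there in EPZ011989 cultures. Over all genes 1929 of the 2314 in that state had no H3K4me3 in the window in any library. For the windows the share in the set was thus near that of the background, which did not hold over the whole gene. In all, 19 of the 49 windows held no H3K4me3 in any library, against 6177 of the windows of all 19970 genes. The 19 were 8 of the 9 PAX genes (PAX5 being the exception), ALX1, ISX, OTX2, PHOX2A, PRRX1, PRRX2, VSX1, LHX5, LHX8, LMX1A and IRX1. Among these are regulators of distinct tissues, such as PAX4 of the endocrine pancreas, PAX8 of the thyroid, OTX2 of the forebrain, LMX1A of dopaminergic neurons and ISX of the intestine. PAX5, the B cell regulator, had 2441 and 2122 bp in EPZ011989 cultures and 1228 and 2345 bp in vehicle cultures, and these overlapped.

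Several of these genes did carry H3K4me3 away from their ends. Over the whole gene 9 of the 49 had none in any library (ALX1, ISX, OTX2, PHOX2A, PRRX1, VSX1, PAX1, PAX4 and IRX1), against 5253 of all 19970 genes. Of the 17 genes whose vehicle window held H3K27me3 alone, 5 had none, against 1613 of 2314 such genes overall. H3K4me3 lay in both vehicle libraries at 6 of these 17, against 265 of 2314. PAX2 had 5315 and 4364 bp in EPZ011989 cultures and 2712 and 2525 bp in vehicle cultures. LHX5 had 3365 and 1324 bp in EPZ011989 cultures and 896 and 334 bp in vehicle cultures. PRRX2 had 1723 and 762 bp in EPZ011989 cultures and 0 and 0 bp in vehicle cultures, in peaks that began 31059 and 31552 bp past the start. PAX6 and PAX9 had similar lengths in all libraries, with 6634 and 6627 bp at PAX6 in EPZ011989 cultures and 6747 and 6275 bp in vehicle cultures, and with 4495 and 3675 bp at PAX9 in EPZ011989 cultures and 4477 and 4145 bp in vehicle cultures. LMX1A had 2278 and 1948 bp in EPZ011989 cultures and 2055 and 2615 bp in vehicle cultures, and PAX8 had 2107 and 1434 bp in EPZ011989 cultures and 1454 and 2356 bp in vehicle cultures. Here the EPZ011989 and vehicle values were apart at PAX2, LHX5 and PRRX2 and overlapped at PAX6, PAX9, LMX1A and PAX8.

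By the whole-gene measure 40 of the 49 genes entered the H3K4me3 fit, and 6 were longer by at least 1000 bp in both EPZ011989 libraries, against 1.94% of all genes tested; 0 were shorter by as much, against 0.442%. The 6 were LHX1, LMX1B, POU3F3 and DRGX with LHX6 and PAX2 added. POU3F3 had 11742 and 8404 bp in EPZ011989 cultures and 5007 and 4410 bp in vehicle cultures, and LMX1B had 6006 and 3589 bp in EPZ011989 cultures and 1952 and 1539 bp in vehicle cultures. 3 genes had H3K4me3 in both EPZ011989 libraries and in no vehicle library (ALX4, GSC and PRRX2), against 1.15% of all genes tested. Limma called 0 of the 40 genes after adjustment, against 0.0272% of all genes tested higher and 0% lower. Of the 40, 13 had an unadjusted p under 0.05 in the higher direction, against 8.32%. Where the vehicle window held both marks, 7 of 18 genes in the set had such a p, against 742 of 4838. In the lower direction there were 0 of 18, against 39 of 4838. In that state 5 of 18 were longer by at least 1000 bp, against 183 of 4838. Shorter by as much were 0 of 18, against 12 of 4838. Long H3K4me3 with like values in all libraries was found at IRX2, with 16697 and 16837 bp in EPZ011989 cultures and 16742 and 16817 bp in vehicle cultures, and at LHX3, with 13879 and 13438 bp in EPZ011989 cultures and 13507 and 13453 bp in vehicle cultures.

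The 6 Iroquois genes lie in 2 clusters of 3 and did not share a state. In the cluster of chromosome 5, IRX4 was wholly under H3K27me3 in vehicle cultures. Within their windows IRX2 carried H3K4me3 alone and IRX1 carried neither mark. IRX4 and IRX2 are 848.5 kb apart and IRX2 and IRX1 844.2 kb. From 50 kb before the first to 50 kb after the last gene, H3K27me3 covered 0 and 0 kb in EPZ011989 cultures and 158.5 and 189.6 kb in vehicle cultures. H3K4me3 covered 29.0 and 25.5 kb of that span in EPZ011989 cultures and 27 and 28.4 kb in vehicle cultures. In the cluster of chromosome 16, which holds IRX3, IRX5 and IRX6 with gaps of 644.1 and 389.7 kb, all 3 genes carried H3K4me3 in every H3K4me3 library. There H3K27me3 covered 0 and 0 kb in EPZ011989 cultures and 6.7 and 5.6 kb in vehicle cultures, and H3K4me3 covered 16.7 and 14.1 kb in EPZ011989 cultures and 14.4 and 15.8 kb in vehicle cultures.

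**Figure D4:**
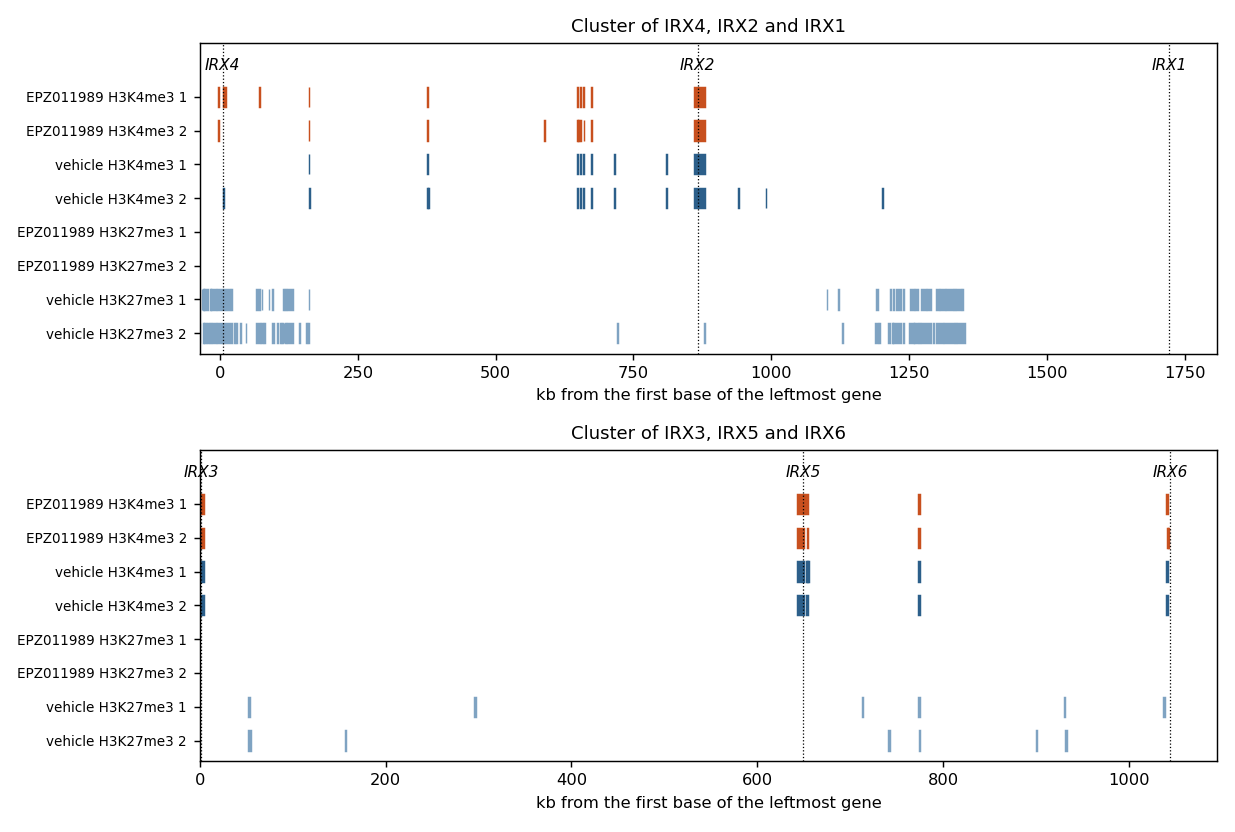
Peaks of each library (rows) over the Iroquois clusters of chromosome 5 (upper panel) and chromosome 16 (lower panel), against distance in kb from the first base of the leftmost gene; dotted lines mark the genes, and narrow peaks are drawn at a minimum line width. H3K27me3 in vehicle cultures lies around IRX4 and between IRX2 and IRX1, with 158.5 and 189.6 kb over the upper span against 6.7 and 5.6 kb over the lower, and the EPZ011989 H3K27me3 rows are empty.

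Relatives outside the set were described in the same way. Among 28 other genes of these classes, 11 had H3K27me3 in both vehicle libraries, against 36 of the 49 genes of the set and 36.9% of all genes. Of the 28 relatives, 12 entered the fit, and H3K27me3 fell at 11 of these. MKX, a tendon gene, was the only 1 of the 28 with H3K4me3 peaks in both EPZ011989 cultures and in no vehicle culture. It had 864 and 671 bp in EPZ011989 cultures and 0 and 0 bp in vehicle cultures (adjusted p = 0.250 by limma). ISL1 and POU4F3, which mark Merkel cells, had no H3K27me3 in any library, and H3K4me3 covered 10002 bp of ISL1 and 7890 bp of POU4F3 in each of the 4 libraries. Their nearest relatives in the set differed in state: ISL2 carried H3K4me3 alone, POU4F1 carried both marks, and POU4F2 carried H3K4me3 with a H3K27me3 peak in 1 vehicle library. Among 10 genes for partners of LIM proteins and LIM-only proteins, H3K27me3 fell at 3 of 5 tested, 0 of 8 tested for H3K4me3 passed the adjusted test, and none met the rule of 1000 bp.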

How the data were processed

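The authors deposited a peak list for each library on hg38, broad for H3K27me3 and narrow for H3K4me3 and IgG. MACS2 2.1.1.20160309, SAMtools 0.1.19, Bowtie2 2.2.9 and FastQC are named in the submitters' processing notes; thresholds, the control used and any use of the spike-in are not given in the sources used here. Peaks in the deposited lists have a score, a fold (a ratio of pileup over background), a −log10 p and a −log10 q, and the narrow lists also give the summit's offset, all by the authors' software. Score, −log10 p and summit were not used in any result.

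Gene positions and promoters came from RefSeq tables (GRCh38.p14). Covered base pairs per window were computed in Python 3.11.15 (numpy 2.4.6, pandas 2.3.3) and compared, unscaled, by limma (version 3.58.1, R 4.3.3, with trend and robust options), 2 against 2 libraries per mark, over windows with a peak in any of 4; p-values were Benjamini-Hochberg adjusted and called under 0.05. Marked means an overlap of 1 bp or more. Tested on simulated data made from the vehicle libraries, limma called 24 of 100 H3K4me3 windows raised by 1000 bp, 54 of 100 raised by 2000 bp and 4 of 13122 unchanged. In the H3K27me3 simulation, 132 of 200 emptied windows were called and 22 of 9371 others. All simulated libraries were drawn around the vehicle means, with the vehicle spreads shuffled across windows. The tie of spread to mean and the differences in yield between libraries were thus not kept, and these rates may differ from those in the data. The members and lists were chosen with earlier results of these data known. Genes were named by rule: the 10 largest and 5 smallest H3K4me3 differences, genes without H3K27me3, with H3K27me3 left, with H3K4me3 gained, lost or absent, and the 5 in the longest regions; RAX, PAX5 and the genes that missed the H3K27me3 test were named after their values were seen. Alternatives were other window sizes and positions, overlaps, a stricter −log10 q of 5, no filter, quantile normalization, other limma options, a replicate block and leaving out each library; the whole gene was added after the data were examined.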

Additional observations from a re-analysis of the deposited data

How the results depend on the processing

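Depth is unknown, and the smaller peak yield of a library cannot be told apart from less mark. The number of genes with lower H3K27me3 was 34 and lay between 28 and 36 under the other windows, options, the stricter −log10 q, the replicate block and quantile normalization (29, with 6 higher, against 3599 lower and 3309 higher over all windows); leaving out either EPZ011989 library gave 22 and 22, against 3212 and 3209 over all windows. The fits for H3K27me3 with no filter and without a vehicle library could not be made, because nearly all variances there were 0. For H3K4me3 the count was 0 except with no filter (7) and quantile normalization (4). Genes longer by 1000 bp numbered 0 with windows of 1000 bp and 2 at the start alone, and 4 to 7 with a library left out. Genes with H3K4me3 peaks with EPZ011989 only numbered 1 at the start alone, and 3 to 4 with a library left out. LHX1 and ALX4 have no listed start and could not be measured at the start alone. Same-numbered libraries did not deviate together (correlation 0.0162 for H3K27me3 and −0.0297 for H3K4me3), and with the replicate number as a block 30 genes were lower in H3K27me3 and 0 changed in H3K4me3.

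Differences changed sign as follows, and the cause was not tested. H3K27me3 with quantile normalization gave 986 bp at PHOX2A, 961 at PAX6, 852 at LHX3, 784 at LHX8, 1068 at POU4F2 and 928 at IRX6. H3K4me3 gave −216 bp at OTP and −10.4 at OTX1 with quantile normalization, 853.5 at PITX1, 181 at LHX4 and −220.5 at ISL2 with windows of 5000 bp, 304 at PITX1 and 181 at LHX4 over the whole gene, 181 at LHX4 and −85.5 at POU4F2 at the start alone, and 375.5 at LHX9 with the stricter −log10 q. With a library left out H3K4me3 differences ran from −174 to 184 bp at OTP, −12.0 to 123 at OTX1, −15.0 to 498 at PITX3, −354 to 422 at UNCX, −63.5 to 1053.5 at PAX5, −42.0 to 399 at LHX3, −240.0 to 170.0 at LHX4, −654 to 97.0 at LHX9, −110.5 to 408.5 at ISL2, −411 to 853 at POU4F2, −82.5 to 57.5 at IRX2, −485 to 138 at IRX3 and −503.5 to 1265.5 at IRX5. Over the named genes 319 of the H3K27me3 values under alternatives kept direction and side of the threshold, 45 lost the call, 5 gained it and 6 changed sign; for H3K4me3 the counts were 341, 0, 11 and 29.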
